A study of Mus musculus with 12 samples.

Results

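The 10 genes described here are known transcriptional targets of the tumour suppressor p53 together with the inhibitors of cyclin-dependent kinases that mark cellular senescence. They were taken by name (Cdkn1a, Cdkn2a, Cdkn2b, Mdm2, Bax, Bbc3, Gdf15, Ccng1, Trp53inp1 and Sesn2), and all 10 were found among the 23359 genes of the deposited expression table. The study sequenced messenger RNA of C3H/HeJ mouse skin in 12 libraries, 3 for each of 4 groups. Treated skin (T_20W) was labelled CD36highCD90+ Treated at 20 weeks, and the design of the series names transplantation of these fibroblasts into fibrotic skin. Fibrotic skin had been taken at 20 weeks (F_20W) and at 6 weeks (F_6W), and normal skin (N) carried no time point. The labels used here give no age and no way of inducing fibrosis, and whether each library is a mouse of its own is not stated in them. The p-values therefore measure the spread between these samples, which may be technical.

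In mouse and human cells, p53 is a transcription factor that is held at a low level by the ubiquitin ligase MDM2 and by its relative MDM4. After DNA damage or other stress p53 is released from them and switches on genes for cell cycle arrest (Cdkn1a), for death by the mitochondrial route (Bax, Bbc3), for metabolic restraint (Sesn2) and for its own feedback control (Mdm2, Ccng1, Trp53inp1). A lasting arrest, called senescence, further involves the Cdkn2a and Cdkn2b genes, whose INK4 proteins block CDK4 and CDK6 and keep the retinoblastoma protein active. Cdkn2a also encodes p19ARF, which binds MDM2 and so links the locus back to p53. In skin these genes are known from irradiated, ageing and wounded tissue.

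Expression was given as FPKM, a fragment count divided by transcript length and by library size, so that levels can be set side by side between genes. Values per library are listed in the order of replicates 1, 2 and 3. Differences between groups were tested with limma on log2(FPKM + 1), and a gene was called at a Benjamini-Hochberg adjusted p under 0.05. Log2 fold changes are on that scale, which understates the change of genes near 0. Of the 10 genes, 9 had at least 1 FPKM in at least 3 libraries and were tested. Cdkn2a passed this filter only through its fibrotic and treated libraries, and Gdf15 did not pass it. Because whole skin was sequenced, a change in the number of cells of a type and a change of RNA per cell cannot be told apart.

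Replicate 1 of treated skin stood apart from the other treated libraries. The summed level of 6 markers of wound keratinocytes (Krt6a, Krt6b, Krt16, Krt17, Sprr1b and Stfa1) was 8984, 1424 and 1209 FPKM in treated skin, against 5072 to 12383 FPKM in fibrotic skin at 20 weeks. It was 9573 to 20243 FPKM at 6 weeks and 367 to 598 FPKM in normal skin. The 5 measured neutrophil markers summed to 1245, 61.3 and 32.1 FPKM in treated skin, against 396 to 3259 FPKM in fibrotic skin at 20 weeks. Replicate 1 of treated skin thus lay inside the fibrotic range for both lists and the other treated libraries lay below it. On the log2 scale, tested genes had a median SD of 0.239 in treated skin, against 0.148 in fibrotic skin at 20 weeks, 0.142 at 6 weeks and 0.148 in normal skin.

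The sequences at the starts of the 3 inhibitor genes are shown, without the downstream start of Cdkn1a. Cdkn2a and Cdkn2b were called in comparisons below, while Cdkn1a, the p53 target for cell cycle arrest, was called in none. The table gives 1 value for each gene whichever start was used. Windows of 300 bases, from 250 bases before to 50 bases after a RefSeq start on GRCm38.p6, were found for 9 of the 10 genes (14 windows), and Trp53inp1 had none. The first window is that of the upstream start of Cdkn1a, on the plus strand at chr17:29090729-29091028. In it capitals mark CATGNNNNNNCATG, the paired cores of a p53 response element, which lies 48 to 35 bases before the start. In the other windows capitals mark the 50 bases after the start. The Cdkn2a windows are on the minus strand at chr4:89294570-89294869 for the upstream start, used for p19ARF, and at chr4:89282143-89282442 for the downstream start, used for p16INK4a. The Cdkn2b window is on the minus strand at chr4:89310983-89311282.
Cdkn1a, upstream start: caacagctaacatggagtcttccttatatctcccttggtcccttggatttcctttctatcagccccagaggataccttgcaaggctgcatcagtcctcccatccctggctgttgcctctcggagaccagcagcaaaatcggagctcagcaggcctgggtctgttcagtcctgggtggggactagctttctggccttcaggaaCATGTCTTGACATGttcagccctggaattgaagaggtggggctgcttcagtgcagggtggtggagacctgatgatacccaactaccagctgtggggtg
Cdkn2a, upstream start: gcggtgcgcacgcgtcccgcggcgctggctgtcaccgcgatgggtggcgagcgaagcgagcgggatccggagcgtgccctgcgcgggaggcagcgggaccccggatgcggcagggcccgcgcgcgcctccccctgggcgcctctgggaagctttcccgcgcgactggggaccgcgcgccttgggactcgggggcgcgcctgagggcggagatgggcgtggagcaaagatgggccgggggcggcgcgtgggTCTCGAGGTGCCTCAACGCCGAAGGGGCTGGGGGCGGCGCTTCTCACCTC
Cdkn2a, downstream start: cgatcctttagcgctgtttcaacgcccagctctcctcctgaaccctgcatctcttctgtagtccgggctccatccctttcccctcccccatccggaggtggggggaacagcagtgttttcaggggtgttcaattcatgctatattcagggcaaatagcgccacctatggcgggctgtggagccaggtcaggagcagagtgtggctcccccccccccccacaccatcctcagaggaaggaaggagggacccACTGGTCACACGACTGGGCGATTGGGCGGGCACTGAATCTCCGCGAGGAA
Cdkn2b: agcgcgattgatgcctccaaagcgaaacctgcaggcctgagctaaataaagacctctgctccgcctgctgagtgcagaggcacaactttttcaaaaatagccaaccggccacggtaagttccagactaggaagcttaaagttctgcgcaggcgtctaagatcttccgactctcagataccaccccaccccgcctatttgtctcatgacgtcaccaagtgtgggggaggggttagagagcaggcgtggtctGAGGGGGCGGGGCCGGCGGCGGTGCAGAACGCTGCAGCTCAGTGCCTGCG

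The motif CATGNNNNNNCATG reads the same on both strands, and it was chosen after the Cdkn1a window had been read. It was found in 1 of the 14 windows of these genes and in 0.712% of the 32851 windows of all genes. The p53 half-site consensus of 10 bases, which also reads the same on both strands, was found in 4 of the 14 windows and in 8.36% of all windows. The window of the downstream Cdkn1a start, on the plus strand at chr17:29093519-29093818, held neither a half-site nor the paired cores. In the upstream Cdkn1a window, 1 of its 2 half-sites overlaps the paired cores. The other 3 windows with a half-site hold 1 each. These are shown because they belong to a feedback ligase, a cyclin and a death effector that are known p53 targets. No binding of p53 was measured here, and whether p53 uses these half-sites was not tested.
Mdm2: GAACTTGCCT
Ccng1: GGGCAAGCCT
Bax: AGGCAAGCTT

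Cdkn2a and Cdkn2b lie next to each other on the minus strand of chromosome 4 (GENCODE M21, GRCm38). Cdkn2a spans positions 89274471 to 89294653 and Cdkn2b spans 89306299 to 89311039. The upstream start of Cdkn2a lies 12461 bases from the downstream one, and the 2 annotated transcripts share 2 of their 3 exons in full or in part. The upstream Cdkn2a window is rich in the dinucleotide CG, with 45 of them and 77.0% G and C, against 12 and 60.3% in the downstream window. No methylation was measured here.

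**Figure D1:**
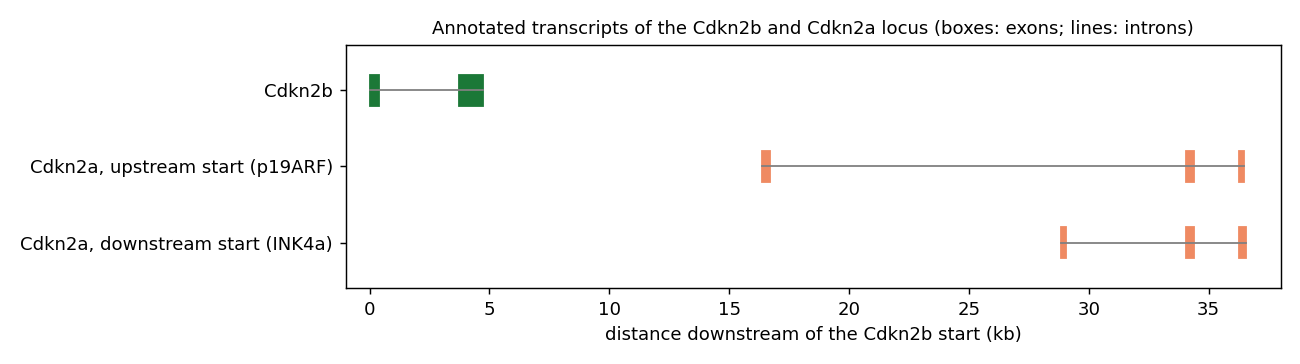
Annotated transcripts of the Cdkn2b and Cdkn2a locus, with the distance downstream of the Cdkn2b start in kb on the x axis, boxes for exons and lines for introns. The 2 Cdkn2a transcripts have separate first exons and overlapping later exons, so a value for the whole gene does not separate p19ARF from p16INK4a.

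Cdkn2a was almost absent from normal skin and was detected in all 9 fibrotic and treated libraries. It had 14.7, 8.71 and 2.88 FPKM in treated skin, 8.01, 22.1 and 22.0 FPKM in fibrotic skin at 20 weeks, and 5.02, 10.7 and 9.01 FPKM at 6 weeks. Normal skin had 0.0583 and 0.254 FPKM and was listed at 0 in replicate 3. No library of normal skin overlapped any of the others. The levels ordered as fibrotic at 20 weeks, treated, fibrotic at 6 weeks and normal, and the first 3 of these overlapped one another. Cdkn2a rose in fibrotic skin at 6 weeks against normal skin by 3.02 ± 0.51 on the log2 scale (SE, 3 libraries a group, limma adjusted p = 0.00181). It rose at 20 weeks by 3.94 ± 0.51 (adjusted p = 0.000782) and in treated skin by 2.93 ± 0.51 (adjusted p = 0.00616), both against normal skin.

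The size of these Cdkn2a changes depended on the pseudocount, because normal skin was near 0: with 0.1 in place of 1 FPKM they were 5.48 at 6 weeks, 6.48 at 20 weeks and 5.36 in treated skin. The treated call was lost when only the 6 libraries compared were fitted (adjusted p = 0.0617). Treated minus fibrotic skin at 20 weeks was -1.0 on the log2 scale (95% interval -2.13 to 0.12, adjusted p = 0.186), which did not pass. Leaving out 1 library moved it between -1.46, where it passed without replicate 1 of treated skin (adjusted p = 0.0417), and -0.45 without replicate 3 of treated skin (adjusted p = 0.574). Between 20 and 6 weeks the difference was 0.92 (95% interval -0.21 to 2.05, adjusted p = 0.347).

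Cdkn2b, which encodes the INK4 inhibitor p15INK4b and is known in epithelial cells as a target of TGF-beta, was higher in fibrotic skin than in normal skin, and its level in treated skin lay near that of normal skin. It had 27.0, 16.2 and 13.2 FPKM in treated skin, 33.2, 34.7 and 38.8 FPKM in fibrotic skin at 20 weeks, 26.7, 32.9 and 32.8 FPKM at 6 weeks, and 17.1, 20.5 and 20.2 FPKM in normal skin. The fibrotic libraries of both time points lay above every normal library. In treated skin replicate 1 lay above the normal range and the other libraries below it. At 20 weeks it rose to 35.6 ± 2.94 FPKM in fibrotic skin, against 19.3 ± 1.88 FPKM in normal skin (SD, n = 3 each). On the log2 scale this was 0.85 ± 0.21 (SE, limma adjusted p = 0.0131). At 6 weeks it rose by 0.65 ± 0.21 (adjusted p = 0.0343), a call that was lost in 5 of the 6 fits that left out 1 library (adjusted p up to 0.109), and on rescaling the libraries to equal totals without muscle, hair shaft, cornified and short RNA genes (0.31, adjusted p = 0.144). With the replicate number as a block it did not pass (adjusted p = 0.0609).

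In treated skin Cdkn2b fell to 18.8 ± 7.25 FPKM, against 35.6 ± 2.94 FPKM in fibrotic skin at 20 weeks (SD, n = 3 each). The log2 fold change was -0.94 ± 0.21 (SE, limma adjusted p = 0.0223), and the groups did not overlap. Without replicate 1 of treated skin it was -1.22 (adjusted p = 0.000377). The call was lost when any other of the 6 libraries was left out (adjusted p from 0.0508 to 0.0784) and when these 6 libraries were fitted alone (adjusted p = 0.132). Against normal skin treated skin had -0.09 (95% interval -0.56 to 0.38, adjusted p = 0.778), which ranged from -0.37 without replicate 1 of treated skin (adjusted p = 0.0737) to 0.12 without its replicate 3 (adjusted p = 0.692). The wound keratinocyte and neutrophil markers were also lower in the 2 treated libraries with the least Cdkn2b, and their part in the result was not tested.

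Cdkn1a, which encodes p21, the inhibitor of cyclin-dependent kinases through which p53 halts the cell cycle, was the most abundant of the 10 genes in every library. It had 166, 116 and 132 FPKM in treated skin, 165, 153 and 155 FPKM in fibrotic skin at 20 weeks, 169, 148 and 139 FPKM at 6 weeks, and 116, 148 and 121 FPKM in normal skin. These values placed it between the 95.8th and the 97.0th percentile of the tested genes in the 12 libraries. The 3 libraries of fibrotic skin at 20 weeks lay above the normal ones, and the other groups overlapped normal skin. The log2 fold change against normal skin was 0.24 at 6 weeks (95% interval -0.08 to 0.56, limma adjusted p = 0.2), 0.30 at 20 weeks (-0.02 to 0.62, adjusted p = 0.13) and 0.09 in treated skin (-0.23 to 0.41, adjusted p = 0.664). Treated against fibrotic skin at 20 weeks gave -0.21 (-0.53 to 0.11, adjusted p = 0.333). The last was -0.35 without replicate 1 of treated skin (adjusted p = 0.0604) and -0.09 without its replicate 2 (adjusted p = 0.724). None passed, and the bounds of the 4 intervals lay within a 2-fold change either way. GENCODE places a gene model of unsettled type on the opposite strand over 2 of the 11 annotated Cdkn1a exons, and the table does not state whether strand was used in counting.

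**Figure D2:**
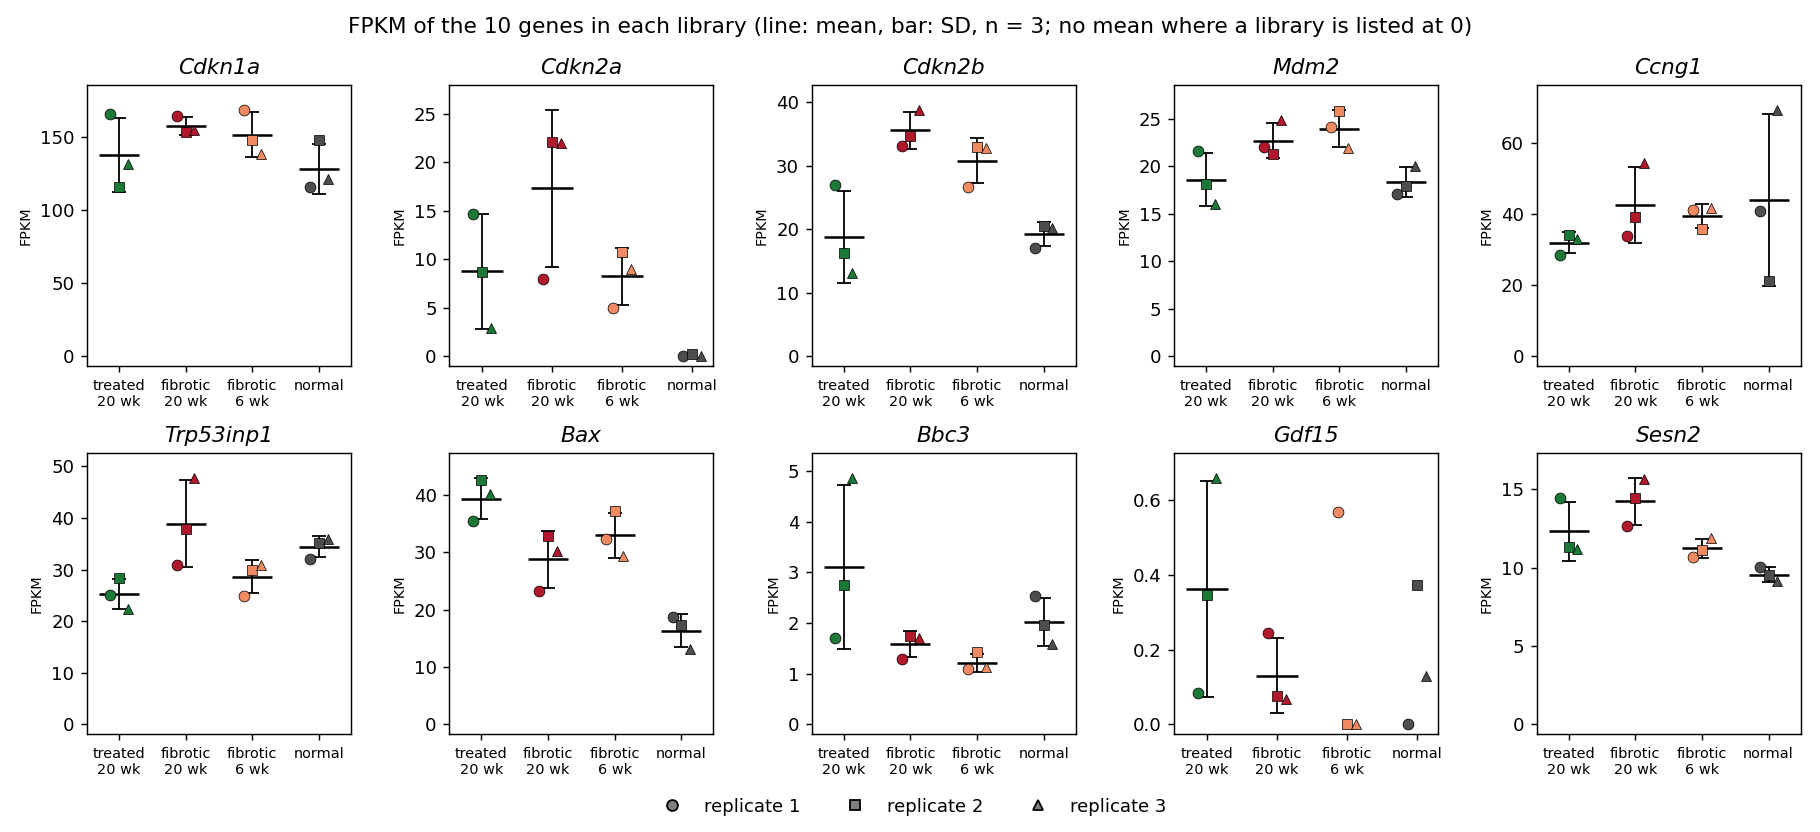
FPKM of the 10 genes in each library, by group (treated and fibrotic at 20 weeks, fibrotic at 6 weeks, normal), with the mean as a line and the SD as a bar (n = 3), and no mean or SD where a library is listed at 0. Cdkn2a lies between 2.88 and 22.1 FPKM in the 9 treated and fibrotic libraries and at or below 0.254 FPKM in normal skin, while Cdkn1a overlaps between treated, fibrotic 6-week and normal skin.

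Mdm2, the ubiquitin ligase gene that p53 itself switches on to limit its own activity, differed little between groups. It had 21.6, 18.1 and 16.0 FPKM in treated skin, 22.0, 21.3 and 24.8 FPKM in fibrotic skin at 20 weeks, 24.2, 25.9 and 21.9 FPKM at 6 weeks, and 17.1, 18.0 and 20.05 FPKM in normal skin. All fibrotic libraries lay above all normal ones, and treated skin straddled the normal range. Mdm2 rose at 6 weeks against normal skin by 0.37 ± 0.12 on the log2 scale (SE, limma adjusted p = 0.0331, n = 3 each), with means of 24.0 ± 1.99 FPKM in fibrotic and 18.4 ± 1.53 FPKM in normal skin (SD). That call was lost in 4 of the 6 fits that left out 1 library (adjusted p up to 0.115) and on that rescaling (0.03, adjusted p = 0.764), and with the replicate number as a block it did not pass (adjusted p = 0.0604). At 20 weeks the difference was 0.29 (95% interval 0.03 to 0.56, adjusted p = 0.0815). Treated against fibrotic skin at 20 weeks gave -0.28 (-0.55 to -0.02, adjusted p = 0.124), or -0.39 without replicate 1 of treated skin (adjusted p = 0.0213) and -0.19 without its replicate 3 (adjusted p = 0.386).

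Ccng1, which encodes cyclin G1, a p53-induced regulator of MDM2, varied more within normal skin than between groups. It had 28.6, 34.1 and 33.0 FPKM in treated skin, 33.9, 39.1 and 54.3 FPKM in fibrotic skin at 20 weeks, 41.0, 35.6 and 41.6 FPKM at 6 weeks, and 40.8, 21.3 and 69.3 FPKM in normal skin. The normal libraries spanned the values of every other group. The 24 skeletal muscle markers summed to 6265, 246 and 10245 FPKM in normal skin and 1166, 2551 and 5098 FPKM in fibrotic skin at 20 weeks. At 6 weeks they had 1932, 109 and 3376 FPKM. In these groups the libraries ranked as they did for Ccng1. Treated skin had 153, 2492 and 4180 FPKM, where replicates 2 and 3 ranked the other way. The part of muscle content in the Ccng1 values was not tested. No comparison passed (limma adjusted p from 0.453 to 1).

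Trp53inp1, whose product is a p53-induced stress protein that takes part in cell death and autophagy, was lowest in treated skin. It had 25.1, 28.3 and 22.4 FPKM in treated skin, 30.9, 37.9 and 47.8 FPKM in fibrotic skin at 20 weeks, 25.0, 30.0 and 30.9 FPKM at 6 weeks, and 32.1, 35.2 and 36.0 FPKM in normal skin. Every treated library lay below every library of normal skin and of fibrotic skin at 20 weeks. Trp53inp1 fell to 25.3 ± 2.93 FPKM in treated skin, against 38.9 ± 8.47 FPKM in fibrotic skin at 20 weeks (SD, n = 3 each), or -0.59 ± 0.15 on the log2 scale (SE, limma adjusted p = 0.0324). The call was lost in 4 of the 6 fits that left out 1 library (adjusted p up to 0.119), in the fit of these 6 libraries alone (adjusted p = 0.142), with no filter (0.0615) and on rescaling (0.173). Against normal skin treated skin had -0.44 (95% interval -0.78 to -0.10, adjusted p = 0.0668). Fibrotic skin at 20 against 6 weeks had 0.41 (0.07 to 0.75, adjusted p = 0.183).

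Bax, the gene of the effector protein that opens the outer mitochondrial membrane in cell death, was higher than in normal skin in every fibrotic and treated library. It had 35.4, 42.6 and 40.2 FPKM in treated skin, 23.3, 32.8 and 30.3 FPKM in fibrotic skin at 20 weeks, 32.3, 37.2 and 29.3 FPKM at 6 weeks, and 18.7, 17.3 and 13.1 FPKM in normal skin. Treated skin was the highest group and did not overlap fibrotic skin at 20 weeks. Bax rose in treated skin to 39.4 ± 3.65 FPKM, against 16.4 ± 2.92 FPKM in normal skin (SD, n = 3 each), or 1.23 ± 0.16 on the log2 scale (SE, limma adjusted p = 0.00249). It rose against normal skin by 0.97 ± 0.16 at 6 weeks (adjusted p = 0.00168) and by 0.78 ± 0.16 at 20 weeks (adjusted p = 0.00609), the last being lost on rescaling (0.47, adjusted p = 0.0641). Treated against fibrotic skin at 20 weeks gave 0.45 (95% interval 0.09 to 0.81, adjusted p = 0.0832), or 0.52 without replicate 1 of treated skin (adjusted p = 0.0439) and 0.31 without replicate 1 of fibrotic skin (adjusted p = 0.255). GENCODE places the gene Gm45808 on the same strand over 5 of the 16 annotated Bax exons. Gm45808 is not among the genes of the deposited data, and how reads over these exons were counted is not stated.

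Bbc3, which encodes PUMA, a trigger of BAX, was called in no comparison. It had 1.704, 2.76 and 4.87 FPKM in treated skin, 1.30, 1.75 and 1.705 FPKM in fibrotic skin at 20 weeks, 1.09, 1.42 and 1.12 FPKM at 6 weeks, and 2.53, 1.97 and 1.58 FPKM in normal skin. Fibrotic skin at 6 weeks lay below normal skin in all 3 libraries, and treated skin had the widest range of the groups. The log2 fold change was -0.44 at 6 weeks against normal skin (95% interval -0.98 to 0.10, limma adjusted p = 0.169) and 0.60 in treated against fibrotic skin at 20 weeks (0.06 to 1.14, adjusted p = 0.112). Neither passed. Without replicate 1 of treated skin, treated against fibrotic skin gave 0.86 and passed (adjusted p = 0.0094). Without replicate 3 of treated skin, which had the highest level, it gave 0.31 (adjusted p = 0.362).

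Sesn2, whose product sestrin 2 restrains the growth kinase complex mTORC1 under stress and which is also a target of the transcription factor ATF4, was highest in fibrotic skin at 20 weeks. It had 14.5, 11.3 and 11.2 FPKM in treated skin, 12.6, 14.5 and 15.6 FPKM in fibrotic skin at 20 weeks, 10.7, 11.1 and 11.9 FPKM at 6 weeks, and 10.1, 9.51 and 9.13 FPKM in normal skin. No fibrotic or treated library reached down into the normal range. Sesn2 rose at 20 weeks to 14.2 ± 1.51 FPKM, against 9.57 ± 0.466 FPKM in normal skin (SD, n = 3 each), or 0.53 ± 0.11 on the log2 scale (SE, limma adjusted p = 0.00705). On rescaling this was 0.23 and did not pass (adjusted p = 0.121). At 6 weeks it had 0.21 (95% interval -0.04 to 0.46, adjusted p = 0.158) and in treated skin 0.33 (0.08 to 0.58, adjusted p = 0.0631), both against normal skin. Treated against fibrotic skin at 20 weeks gave -0.20 (adjusted p = 0.235), or -0.31 without replicate 1 of treated skin, which passed (adjusted p = 0.0345), and -0.13 without replicate 3 of fibrotic skin (adjusted p = 0.5).

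Gdf15, which encodes a secreted stress cytokine induced by p53 and by ATF4, stayed under 1 FPKM in all 12 libraries. It had 0.0828, 0.347 and 0.659 FPKM in treated skin and 0.245, 0.0758 and 0.0690 FPKM in fibrotic skin at 20 weeks. At 6 weeks it had 0.566 FPKM in replicate 1 and was listed at 0 in the other two, and normal skin had 0.372 and 0.131 FPKM in replicates 2 and 3 and was listed at 0 in replicate 1. These values overlapped between all groups, and the depth behind them is unknown, so no difference was detectable.

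**Figure D3:**
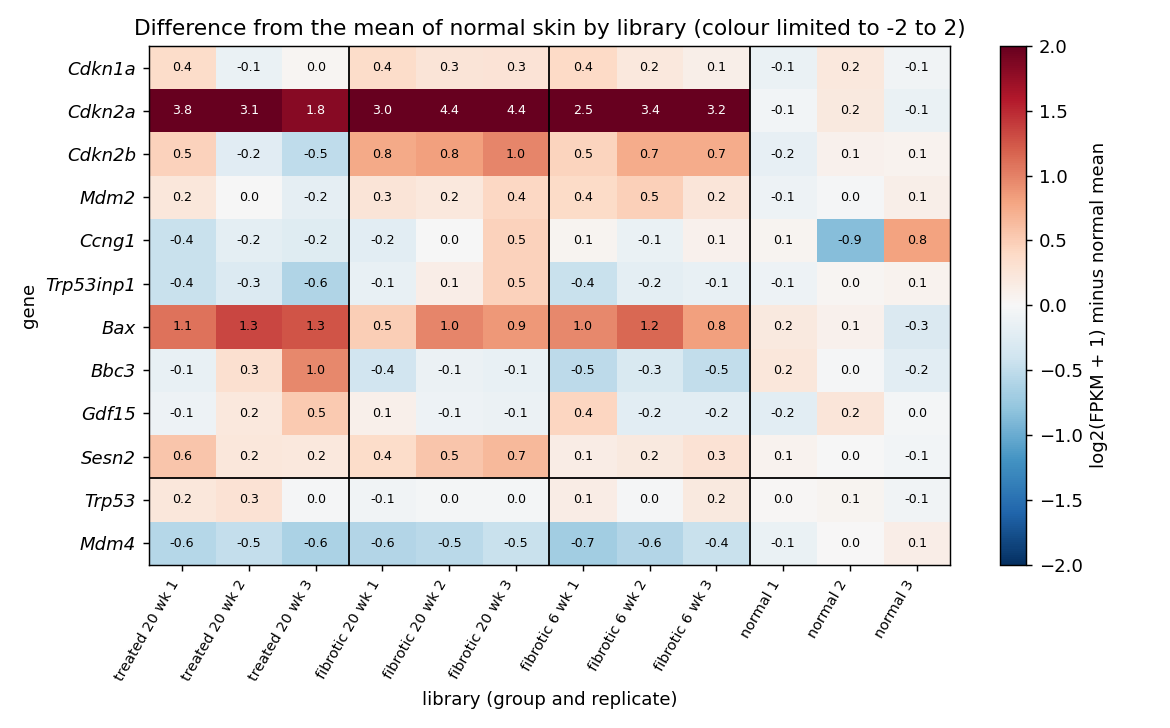
Difference of log2(FPKM + 1) from the mean of the normal libraries for the 10 genes and, below the line, Trp53 and Mdm4, with 1 column for each library and colour limited to -2 to 2. The Cdkn2a row is positive in all 9 treated and fibrotic libraries, the Bax row is positive in the same 9, and Cdkn2b in treated replicate 1 (27.0 FPKM) stands closer to fibrotic skin than the other treated libraries do.

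Counted together, 4 of the 9 tested genes were called higher and 0 lower in fibrotic skin at 6 weeks against normal skin (Cdkn2a, Cdkn2b, Mdm2 and Bax). Of all 13761 tested genes, 39.3% were called in that comparison, 17.6% higher and 21.7% lower. At 20 weeks against normal skin 4 of 9 were called higher and 0 lower (Cdkn2a, Cdkn2b, Bax and Sesn2), with 33.5% of all tested genes called, 15.3% higher and 18.2% lower. Without Cdkn2a, which could pass the filter only by being high outside normal skin, the counts were 3 of 8 at each time point. Every fit at 6 weeks that left out 1 library called 2 or 3 of the 9, and the fit with the replicate block called 2 (Cdkn2a and Bax), beside 36.4% of all tested genes. Groups did not overlap for 7 of 9 genes at 6 weeks and 6 of 9 at 20 weeks, beside 58.1% and 54.6% of all tested genes. Of those at 6 weeks, Trp53inp1 and Bbc3 lay below normal skin and the others above it. Those at 20 weeks all lay above it. The median log2 fold change of the 9 genes was 0.24 at 6 weeks and 0.30 at 20 weeks, beside -0.05 and -0.04 for all tested genes.

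Treated skin against fibrotic skin at 20 weeks had 0 genes called higher and 2 of 9 called lower (Cdkn2b and Trp53inp1), with 15.3% of all tested genes called, 4.45% higher and 10.9% lower. Groups did not overlap for 3 of 9 genes (Cdkn2b and Trp53inp1 lower, Bax higher), beside 32.2% of all tested genes. The median of the 9 genes was -0.28, beside -0.00442 for all tested genes. Without replicate 1 of treated skin 7 of 9 were called, 5 lower (Cdkn2a, Cdkn2b, Mdm2, Trp53inp1 and Sesn2) and 2 higher (Bax and Bbc3), while 37.9% of all tested genes were called, 17.7% higher and 20.2% lower. That fit has 2 treated libraries and takes their spread to be like that of the other groups. When the 6 libraries compared were fitted alone, 0 of the 9 genes and 3 of all tested genes were called. Treated skin against normal skin had 2 of 9 called higher and 0 lower (Cdkn2a and Bax), with 20.7% of all tested genes called, 7.57% higher and 13.2% lower. Groups did not overlap for 4 of 9 (Cdkn2a, Bax and Sesn2 higher, Trp53inp1 lower), beside 37.5% of all tested genes. Without replicate 1 of treated skin 3 of 9 were higher (Bbc3 too, 0.65, adjusted p = 0.0479, or 0.09 without replicate 3 of treated skin), with 22.5% of all tested genes called, 8.55% higher and 14% lower.

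Between fibrotic skin at 20 and at 6 weeks 0 of 9 genes were called by limma, and 0.0363% of all tested genes were called, 0.00727% higher and 0.0291% lower. At an unadjusted p under 0.05, 2 of the 9 passed, Trp53inp1 (log2 fold change 0.41) and Sesn2 (0.31), beside 19.9% of all tested genes at that threshold. Groups did not overlap for these 2 and for Cdkn2b, which is 3 of 9, beside 30.9% of all tested genes. The comparisons of this section share libraries, in particular the 3 normal and the 3 fibrotic libraries at 20 weeks, so their values are not independent of one another.

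**Figure D4:**
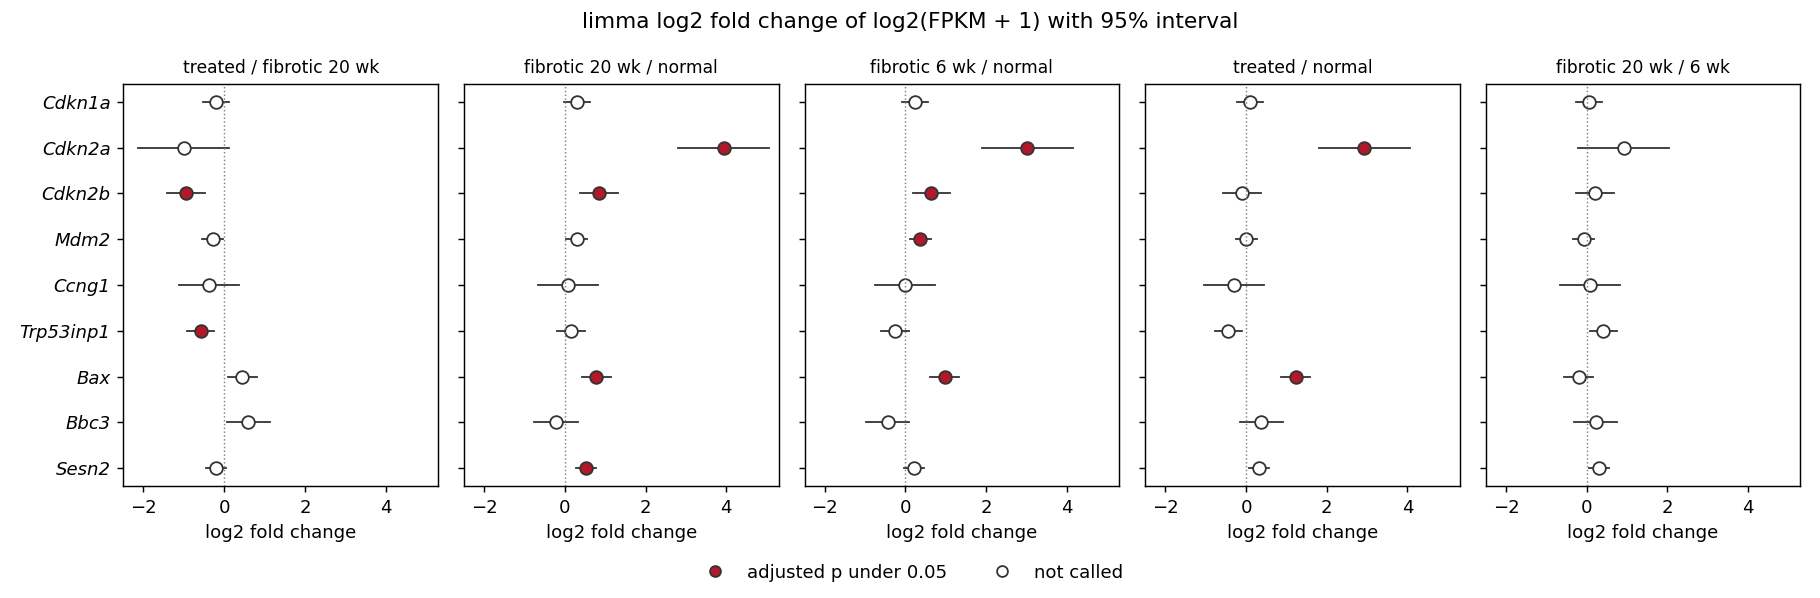
Log2 fold change of the 9 tested genes in the 5 comparisons, as limma estimates on log2(FPKM + 1) with 95% intervals, with filled points for an adjusted p under 0.05. Cdkn2a has estimates of 2.93 to 3.94 against normal skin, and the interval of Cdkn1a includes 0 in every panel.

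Trp53, the gene of p53 itself, was called in no comparison, and Mdm4, which encodes the second inhibitor of p53, was lower outside normal skin. Trp53 had 51.6, 54.3 and 43.4 FPKM in treated skin, 42.1, 42.7 and 43.0 FPKM in fibrotic skin at 20 weeks, 49.0, 43.3 and 50.6 FPKM at 6 weeks, and 44.6, 45.7 and 42.0 FPKM in normal skin, with limma adjusted p from 0.151 to 0.729. Mdm4 had 21.9, 23.6 and 21.1 FPKM in treated skin, 21.7, 22.5 and 23.9 FPKM in fibrotic skin at 20 weeks, 20.1, 21.6 and 24.1 FPKM at 6 weeks, and 30.0, 33.3 and 36.3 FPKM in normal skin. The normal libraries lay above all the others. Mdm4 fell against normal skin by 0.58 on the log2 scale at 6 weeks (adjusted p = 0.00185), by 0.53 at 20 weeks (adjusted p = 0.0037) and by 0.56 in treated skin (adjusted p = 0.00637). Of the 15 genes of p53 and its regulators, 2 were higher and 5 lower at 6 weeks, 0 and 4 at 20 weeks, and 0 and 6 in treated skin, all against normal skin. These were 46.7%, 26.7% and 40% of the list, beside 39.3%, 33.5% and 20.7% of all tested genes. The medians of the list were -0.09, -0.05 and -0.29, beside -0.05, -0.04 and -0.06. Trp63, the p53 relative of basal keratinocytes, fell by 0.82 at 6 weeks and by 0.58 at 20 weeks (adjusted p = 0.00167 and 0.00974). In treated against fibrotic skin at 20 weeks 3 of the 15 were lower and 0 higher: Usp7, a deubiquitinase of MDM2 and p53 (-0.68), the p53 phosphatase gene Ppm1d (-0.59) and the ubiquitin ligase gene Cop1 (-0.55). That was 20% of the list, beside 15.3% of all tested genes. These 3 were called lower without replicate 1 of treated skin too (-0.85, -0.78 and -0.66). The fits of this comparison that left out 1 library called between 3 and 5216 genes of all, and that fit called the most. The calls without replicate 1 of treated skin in the lists below come from the same fit.

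Other p53 targets moved in both directions. Of 24 such genes, 8 were higher and 4 lower at 6 weeks and again at 20 weeks against normal skin, which was 50% of the list each time, beside 39.3% and 33.5% of all tested genes. The medians were 0.16 and 0.18, beside -0.05 and -0.04. Pmaip1, which encodes the death trigger NOXA, rose by 1.78 at 6 weeks and 1.65 at 20 weeks (limma adjusted p = 0.0124 and 0.0204). The stress kinase gene Plk3 rose by 1.51 and 1.80 (adjusted p = 0.00273 and 0.00167), and the nuclease gene Aen rose by 1.03 at 6 weeks. Ddb2, a DNA damage sensor of nucleotide excision repair, fell by 1.03 at 20 weeks (adjusted p = 0.00283). In treated against fibrotic skin at 20 weeks 1 of the 24 was higher and 3 were lower, or 16.7% beside 15.3% of all tested genes. The fit without replicate 1 of treated skin had 4 higher and 7 lower, or 45.8% beside 37.9%. Among the lower ones Perp, a p53 target that also serves desmosomes of the epidermis, had 1538 FPKM in treated skin and 3214 FPKM in fibrotic skin on average (-1.12, adjusted p = 0.0186, or -1.40 without replicate 1 of treated skin). In treated against normal skin 3 were higher and 3 lower, or 25% beside 20.7%, with Plk3 at 0.98, Ddb2 at -0.80 and Sesn1, the relative of Sesn2, at -0.65. When replicate 1 of treated skin was left out, 5 were higher and 4 lower, or 37.5% beside 22.5% of all tested genes, and Sesn1 did not pass (-0.42, adjusted p = 0.0694).

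Among 18 other inhibitor and retinoblastoma pathway genes, 4 were higher and 3 lower at 6 weeks, and 2 and 3 at 20 weeks, against normal skin. These were 38.9% and 27.8% of the list, beside 39.3% and 33.5% of all tested genes. Ccne1 and Ccnd1, cyclins of the entry into the cell cycle, rose by 1.54 and 1.0 at 6 weeks and by 1.04 and 0.84 at 20 weeks. Cdkn1b, which encodes the inhibitor p27, fell by 0.88 and 0.85 (limma adjusted p = 0.000286 and 0.000565), opposite in direction to Cdkn2a and Cdkn2b. In treated against fibrotic skin at 20 weeks 3 of the 18 were higher and 1 lower, among them Ccnd2 (0.71), Ccnd3 (0.60) and Rb1, the retinoblastoma gene (-0.39). That was 22.2% of the list, beside 15.3% of all tested genes. Treated against normal skin had 6 higher and 2 lower, or 44.4% beside 20.7%. Leaving out replicate 1 of treated skin, 4 were higher and 2 lower against fibrotic skin, the 3 named genes among them, and 7 higher and 3 lower against normal skin, or 33.3% and 55.6% beside 37.9% and 22.5% of all tested genes.

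Proliferation genes were called higher at 6 weeks in 10 of 17 members, with a median of 0.91, and in 0 of 17 at 20 weeks by limma (4 at an unadjusted p under 0.05, or 23.5%, beside 45.7% of all tested genes), where the median was 0.34. The 10 genes at 6 weeks were 58.8% of the list, beside 39.3% of all tested genes. The direct difference between 20 and 6 weeks was called for 0 of the 17 (5 at an unadjusted p under 0.05, or 29.4%, beside 19.9%, with a median of -0.52). Birc5, Cdc20 and Plk1, regulators of mitosis, rose by 1.48, 1.25 and 1.20 at 6 weeks. The summed level of the 17 genes was 478, 380 and 252 FPKM in treated skin, 453, 301 and 239 FPKM in fibrotic skin at 20 weeks, 419, 454 and 555 FPKM at 6 weeks, and 250 to 282 FPKM in normal skin. Fibrotic replicate 1 at 20 weeks thus had the highest proliferation sum of its group and also its lowest Cdkn2a (8.01 FPKM), and in treated skin replicate 1 had the highest of both. At 6 weeks replicate 3 had the highest sum and the middle Cdkn2a level (9.01 FPKM), and replicate 1 had the lowest of both. In normal skin replicate 2 had the highest of both, with Cdkn2a near 0. A link between proliferation and Cdkn2a was not tested. In treated against normal skin 5 of the 17 were higher, including the replication helicase genes Mcm5 (1.10) and Mcm3 (0.88), or 29.4% of the list beside 20.7% of all tested genes. Only Mcm5 (0.93) of the 17 was higher without replicate 1 of treated skin, or 5.88% beside 22.5%. Against fibrotic skin at 20 weeks 0 of the 17 were called by limma (1 at an unadjusted p under 0.05, or 5.88% beside 34.7%).

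Secretory genes linked with senescence, which are also made by inflamed and wounded tissue without it, were higher in 14 and lower in 3 of 23 tested members at 6 weeks and higher in 8 and lower in 3 at 20 weeks, against normal skin. That was 73.9% and 47.8% of the list, beside 39.3% and 33.5% of all tested genes, and the medians were 2.05 and 1.03. Il1b, Timp1 and Mmp13 rose by 4.01, 3.83 and 3.57 at 6 weeks. At 20 weeks Mmp13 rose by 3.42 and the chemokine gene Ccl8 by 2.29, and Igfbp3, which encodes a carrier of insulin-like growth factors, fell by 2.26. In treated skin 1 was higher and 1 lower against normal skin (Plaur 1.35 and Igfbp5 -0.90), or 8.7% beside 20.7% of all tested genes. With the replicate number as a block Igfbp5 did not pass there (limma adjusted p = 0.0513). Limma called 0 of 23 in treated against fibrotic skin at 20 weeks (5 at an unadjusted p under 0.05, or 21.7%, beside 34.7% of all tested genes, with a median of -0.0057). With replicate 1 of treated skin left out, 5 were higher and 4 lower than in fibrotic skin, or 39.1% beside 37.9% of all tested genes, with a median of -0.59. Against normal skin 2 were then higher and 1 lower, or 13% beside 22.5%. Beside these changes the 5 neutrophil markers were higher in 4 at 6 weeks and 3 at 20 weeks and the 7 macrophage markers in 6 and 4, and their part in the result was not tested. All 5 neutrophil and all 7 macrophage markers stood at 0.1 FPKM or more in all 12 libraries.

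Of 14 tested further members of the BCL2 family, 6 were higher and 4 lower at 6 weeks, and 3 and 3 at 20 weeks, against normal skin. These were 71.4% and 42.9% of the list, beside 39.3% and 33.5% of all tested genes. The survival genes Bcl2a1b, Bcl2a1a and Bcl2a1d, near-identical copies whose reads may be split between them, had 2.44, 2.12 and 1.49 at 6 weeks. Bak1, the other membrane effector beside Bax, rose by 0.89 at 20 weeks and by 0.91 in treated skin, and Bcl2, which restrains both, fell by 0.83 at 20 weeks. In treated against normal skin 2 of the 14 were higher and 2 lower, or 28.6% beside 20.7% of all tested genes. With the replicate number as a block Bak1 did not pass there (limma adjusted p = 0.0507). Against fibrotic skin at 20 weeks 0 of 14 were called in treated skin by limma. At an unadjusted p under 0.05 there were 2, or 14.3% beside 34.7% of all tested genes. The fit without replicate 1 of treated skin had 3 higher and 1 lower, or 28.6% beside 37.9%, and Bak1 against normal skin did not pass (0.52, adjusted p = 0.0657). ATF4 pathway genes, whose regulator also induces Sesn2 and Gdf15, were higher in 8 of 14 at 6 weeks and in 7 with 1 lower at 20 weeks. That was 57.1% each time, beside 39.3% and 33.5% of all tested genes. Slc7a11, the cystine carrier gene, rose by 2.15 and 1.61, and Chac1, a glutathione-degrading enzyme gene, by 1.54 and 1.75, at 6 and 20 weeks. Treated skin had Slc7a11 (-0.82) and Trib3 (-0.80) lower and Slc3a2 (0.73) higher than fibrotic skin at 20 weeks. They were among 2 higher and 2 lower of the 14, or 28.6% beside 15.3% of all tested genes. Without replicate 1 of treated skin 2 were higher and 5 lower, or 50% beside 37.9%.

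**Figure D5:**
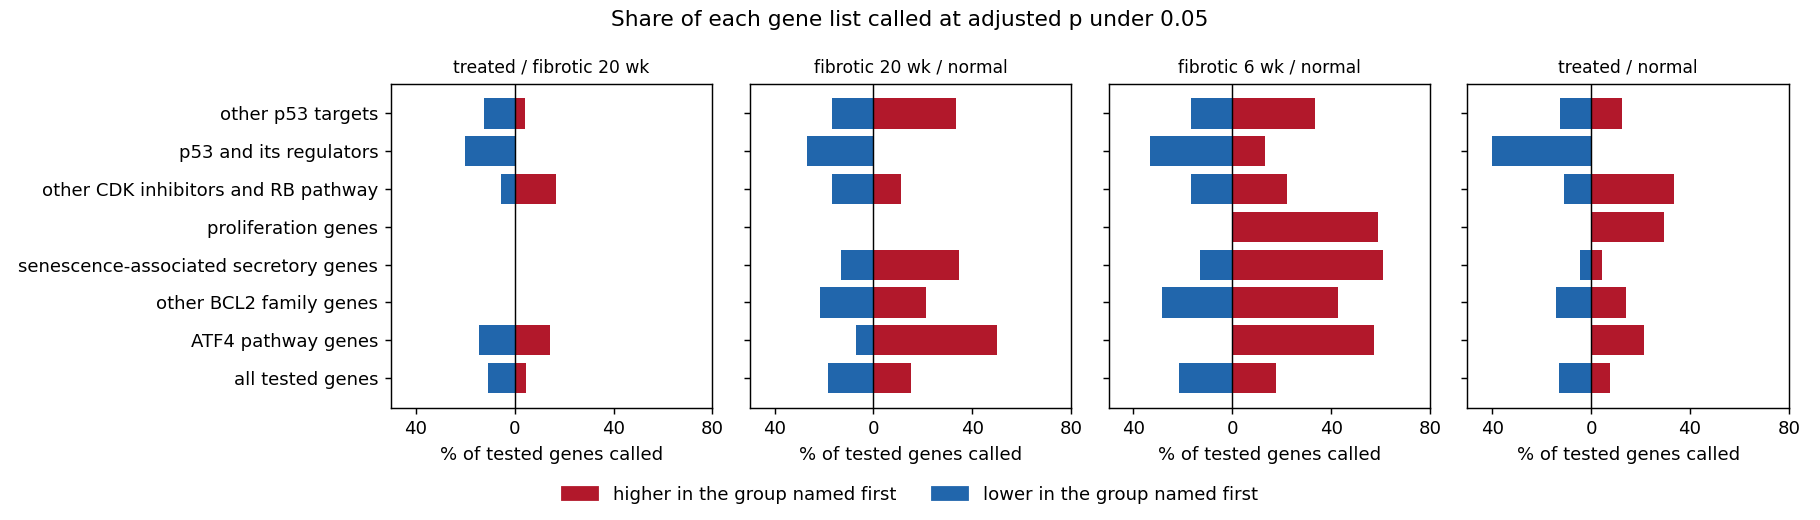
Share of the tested genes of each list that was called higher (right of 0) or lower (left of 0) in the group named first, for 4 comparisons, in percent, with all tested genes in the lowest row. Against normal skin, 10 of 17 proliferation genes were called higher in fibrotic skin at 6 weeks, beside 17.6% of all tested genes. At 20 weeks 0 of 17 were called higher, beside 15.3%. The direct comparison of 20 with 6 weeks, which is not drawn, called 0 of the 17.

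The genes whose pattern over the 12 libraries was most like that of the 3 inhibitors were found by the root-mean-square difference of log2 values centred on normal skin. For Cdkn2a these were Rbp2 (0.617), a gene of cellular retinol binding, and the late cornified envelope genes Lce1f (0.641) and Lce1h (0.646). Rbp2 averaged 78.7 FPKM in treated skin, 171 FPKM in fibrotic skin at 20 weeks, 125 FPKM at 6 weeks and 11.2 FPKM in normal skin. For Cdkn2b they were Ubl3 (0.0890), the glycolipid transfer protein gene Gltp (0.104) and Rdh13 (0.108), and for Cdkn1a they were Arf1 (0.103), Ube2j1 (0.107) and Stk16 (0.108). Gltp averaged 461 FPKM in treated skin, 930 FPKM in fibrotic skin at 20 weeks, 729 FPKM at 6 weeks and 468 FPKM in normal skin.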

How the data were processed

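Per the labels' protocols, 250 ng of RNA (RIN above 8.0) went into each stranded poly(A) library, read paired-end over 101 cycles. Libraries were pooled 5 to a pool, but the pool of each is not given in the sources used here, so batches could not be examined. Values were FPKM, as deposited by the authors in a single table. The submitters' processing notes name mm10, cutadapt 1.7.1, Bowtie2 2.2.3, TopHat2 2.0.13, SAMtools 1.0 and Cufflinks 2.2.1, with no role. Which annotation and scaling they used is not stated there. Depth per gene cannot be read from FPKM, so no counting error is given.

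Tested were the 13761 genes reaching 1 FPKM in 3 libraries or more, short RNAs included, on log2(FPKM + 1) with limma 3.58.1 in R 4.3.3: 1 fit of 12 libraries, a mean per group, an intensity trend, 2-sided, adjusted by Benjamini-Hochberg over all tested genes of each of 5 comparisons. One spread is shared by all groups in this fit, and it was wider in treated skin. With 3 libraries a group the smallest exact permutation p is 0.10, so no such test was used. The script was tested on simulated data. The genes, lists and tests were chosen with earlier results of these data known. Up to 3 called, non-overlapping genes of each list were named by size of change, with Trp53 and Mdm4 always named, and the 3 genes most like each inhibitor (without predicted genes and short RNAs). Older symbols were matched for 4 list genes, and Ly6g, Trac and Flg had no row. Alternatives were another pseudocount, 2 other filters, 2 scalings, a 2-fold threshold, a replicate block, fits of 6 libraries and leaving out each library. The replicate numbers come from the titles, which do not say that they mark shared animals or days. In fibrotic skin at 6 weeks and normal skin the 3 same-numbered pairs of libraries deviated together from their group means (correlations of 0.108 to 0.227), so the blocked value is given beside each result of that comparison whose call it changes. In the other comparisons at most 1 of the 3 pairs had a correlation over 0.1. Promoter sequences are from RefSeq (GRCm38.p6), the mm10 build, and gene positions from GENCODE M21.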

Additional observations from a re-analysis of the deposited data

How the results depend on the processing

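Of the 5 comparisons, the call of Cdkn2a against normal skin at 6 and 20 weeks and that of Bax in treated against normal skin held under every alternative run, the 2-fold threshold included. Depth per gene is unknown, which limits Gdf15, Bbc3 and Cdkn2a in normal skin most. With the replicate block 2 of the 9 genes were called at 6 weeks against normal skin (Cdkn2b and Mdm2 were lost), and no other call of the 9 genes changed in any comparison. At 6 weeks the block gave 2 higher and 4 lower of the genes of p53 and its regulators (40%, beside 36.4% of all tested genes). It gave 15 higher and 2 lower of the secretory genes (73.9%), and 5 instead of 6 higher macrophage markers (71.4%). The block gave 1365 genes of all (9.92%) in treated against fibrotic skin, with 2 instead of 4 of the inhibitor and retinoblastoma genes (11.1%). There the replicate 1 libraries deviated together (correlation of 0.291), and the other same-numbered pairs did not. Proliferation genes called were 3 instead of 5 in treated against normal skin (17.6%, beside 17.1% of all tested genes with the block). They were 1 instead of 0 at 20 weeks against normal skin (5.88% beside 30.7%). BCL2 family genes called were 0 instead of 4 in treated against normal skin (0% beside 17.1%).

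The scaling mattered for small changes. Rescaling to equal totals without muscle, hair shaft, cornified and short RNA genes moved the median of all genes, relative to normal skin, to -0.35 (6 weeks) and -0.32 (20 weeks), and to 0.25 in treated against fibrotic skin. Genes called were then 1306 higher and 5845 lower at 6 weeks (2427 and 2982 otherwise), 1102 and 5266 at 20 weeks (2102 and 2503), and 2305 and 705 in treated against fibrotic skin (612 and 1496). With median-of-ratios scaling, treated against normal skin had 1263 higher and 1352 lower (1042 and 1813 otherwise), and Mdm2 at 20 weeks (0.33, adjusted p = 0.0478) and Sesn2 in treated against normal skin (0.39, adjusted p = 0.04) passed. Under the rescaling 2 of the 9 genes were called at 20 weeks (Bax and Sesn2 were lost), Trp53inp1 at 6 weeks passed as lower (-0.60, adjusted p = 0.0107) and Bax in treated against fibrotic skin as higher (0.74, adjusted p = 0.0304). Uncalled values changed sign at 6 weeks for Cdkn1a (-0.10), Ccng1 (-0.34) and Sesn2 (-0.11), at 20 weeks for Cdkn1a (-0.021), Mdm2 (-0.015), Ccng1 (-0.24) and Trp53inp1 (-0.16), in treated against fibrotic skin for Cdkn1a (0.090), Mdm2 (0.0021) and Sesn2 (0.078), and in treated against normal skin for Mdm2 (-0.013). All of these at 6 and 20 weeks lay above the shifted median.

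With no filter 1 of the 9 genes and 1205 genes of all were called in treated against fibrotic skin, and 9 in 20 against 6 weeks. A filter at a mean of 5 FPKM gave 33 for the last. With the 2-fold threshold 1 member and 1578 genes were called at 6 weeks, 1 and 1311 at 20 weeks, 0 and 541 in treated against fibrotic skin, and 509 genes in treated against normal skin. Fits of the 6 libraries compared gave 478 genes for 20 against 6 weeks, 0 members and 3 genes for treated against fibrotic skin, and 1 member and 138 genes for treated against normal skin; the cause was not tested.

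Leaving out 1 library gave 2 to 3 members and 3502 to 4574 genes at 6 weeks, 4 to 4 members and 3028 to 3545 genes at 20 weeks, 0 to 0 members and 4 to 109 genes for 20 against 6 weeks, 0 to 7 members and 3 to 5216 genes for treated against fibrotic skin, and 2 to 3 members and 904 to 3098 genes for treated against normal skin. The count of 7 came without treated replicate 1, and the count of 3 genes without fibrotic replicate 3 at 20 weeks. The count of 109 came without fibrotic replicate 3 at 6 weeks, and that of 904 without normal replicate 3 (1796 without normal replicate 2). Uncalled values that changed sign when 1 library was left out ranged from -0.43 to 0.40 for Ccng1 at 6 weeks, -0.35 to 0.48 at 20 weeks, -0.11 to 0.22 for 20 against 6 weeks and -0.72 to 0.10 in treated against normal skin. They ranged from -0.0063 to 0.30 for Trp53inp1 at 20 weeks, from -0.0052 to 0.14 for Cdkn1a for 20 against 6 weeks, and in treated against normal skin from -0.046 to 0.21 for Cdkn1a, -0.097 to 0.11 for Mdm2 and -0.37 to 0.12 for Cdkn2b.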
